A study of Mus musculus with 8 samples.

Results

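The genes described here encode 9 enzymes that carry the sterol pathway from the synthesis of squalene to cholesterol: *Fdft1*, *Sqle*, *Lss*, *Cyp51*, *Msmo1*, *Nsdhl*, *Hsd17b7*, *Sc5d* and *Dhcr7*. They were chosen by their place in the pathway, with earlier results of these data known. They were measured among 53090 genes in sciatic nerves of mice at P7, the age at which Schwann cells are actively making myelin. The comparison is of 4 WT nerves with 4 *Nae1* cKO nerves by sequencing of total RNA. In *Nae1* cKO mice (Cre+; Nae1 f/f), a Cre recombinase that is active in the Schwann cell lineage from embryonic stages on removed exon 4 of *Nae1*. The WT nerves came from littermates without Cre that carried 1 or 2 floxed alleles, and the sample labels do not say which. NAE1 is a subunit of the enzyme that activates NEDD8, a small protein which is attached to cullins and other proteins. Whole nerves were sequenced, so that fibroblasts, macrophages, endothelial cells and other cells, which keep *Nae1*, contributed RNA to every sample.

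Cholesterol is a major lipid of the myelin sheath, and myelinating glia make most of it themselves. The pathway starts from acetyl-CoA, passes through mevalonate to farnesyl diphosphate, and is committed to sterols when squalene synthase joins farnesyl units into squalene. Squalene is then oxidized, closed into the ring system of lanosterol, stripped of its extra methyl groups and rearranged to cholesterol. The genes of the pathway are classical targets of SREBP2, a transcription factor that is released from the endoplasmic reticulum when sterols are low and that acts at promoters together with NF-Y and SP1. The 9 genes do not cover every step after squalene, and the remaining steps are not analysed here.

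The promoters of the enzymes were examined first, because they show what the genes have in common in sequence. RefSeq windows (GRCm38.p6) from 250 bases before to 50 bases after the start site were at hand for 7 of the 9 genes. *Fdft1* and *Sqle* had no entry. Motifs were searched on both strands, where CCAAT was taken as the NF-Y box, GGGCGG as the GC box bound by SP1 and its relatives, TCACNCCAC as the core of the sterol regulatory element, and GCGNGGGCG as the EGR site. The GC box and the EGR site can share bases. Stretches of 150 bases from 3 genes that end just before the first annotated start are shown, with NF-Y boxes and GC boxes in capitals on whichever strand they lie. They are shown because *Lss* had the largest fall of the enzymes, *Hsd17b7* the smallest, and *Nsdhl* the largest number of NF-Y boxes. The *Lss* stretch is chr10:76531438-76531587 on the plus strand, the *Nsdhl* stretch is chrX:72918371-72918520 on the plus strand, and the *Hsd17b7* stretch is chr1:169969242-169969391 on the minus strand.
Lss: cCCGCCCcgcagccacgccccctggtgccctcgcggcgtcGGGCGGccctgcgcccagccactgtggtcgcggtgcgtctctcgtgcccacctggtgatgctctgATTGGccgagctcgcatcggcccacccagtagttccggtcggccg
Nsdhl: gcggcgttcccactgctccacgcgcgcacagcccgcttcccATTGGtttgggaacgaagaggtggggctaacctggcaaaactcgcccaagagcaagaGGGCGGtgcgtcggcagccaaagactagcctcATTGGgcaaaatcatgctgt
Hsd17b7: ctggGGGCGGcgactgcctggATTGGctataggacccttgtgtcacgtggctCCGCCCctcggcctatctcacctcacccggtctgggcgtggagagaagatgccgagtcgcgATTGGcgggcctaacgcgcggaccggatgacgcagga

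An NF-Y box was found in 7 of the 9 windows, with all 7 genes among them, against 37.4% of the 32851 RefSeq windows of the same length. A GC box was found in 8 of the 9 windows, again with all 7 genes among them, against 35.7% of all windows. *Dhcr7* has 3 annotated starts, and 1 of its 3 windows held an NF-Y box. This was the window of the third start, which lies within the gene, and the window of the first start held none. In GENCODE, *Msmo1* starts 214 bases and *Cyp51* 49 bases before the RefSeq start used here. All NF-Y boxes of *Msmo1* and the only 1 of *Cyp51* therefore lie after the GENCODE start. The *Lss* window held 1 NF-Y box, which begins 62 bases before the start, and 2 GC boxes. The *Hsd17b7* window held 3 NF-Y boxes and 3 GC boxes, of which 2 of each lie in the stretch shown. That of *Nsdhl* held 4 NF-Y boxes and 1 GC box, of which 2 NF-Y boxes and the GC box lie in the stretch shown. The sterol regulatory element core was found in 0 of the 9 windows and in 1.24% of all windows. Only this spelling of the core was searched, so other forms of the element were not counted. The EGR site was found in 1 gene, *Dhcr7*, where 2 of its windows held it, and in 5.55% of all windows. These matches are descriptions of letters in a short window and not sites of binding.

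**Figure D1:**
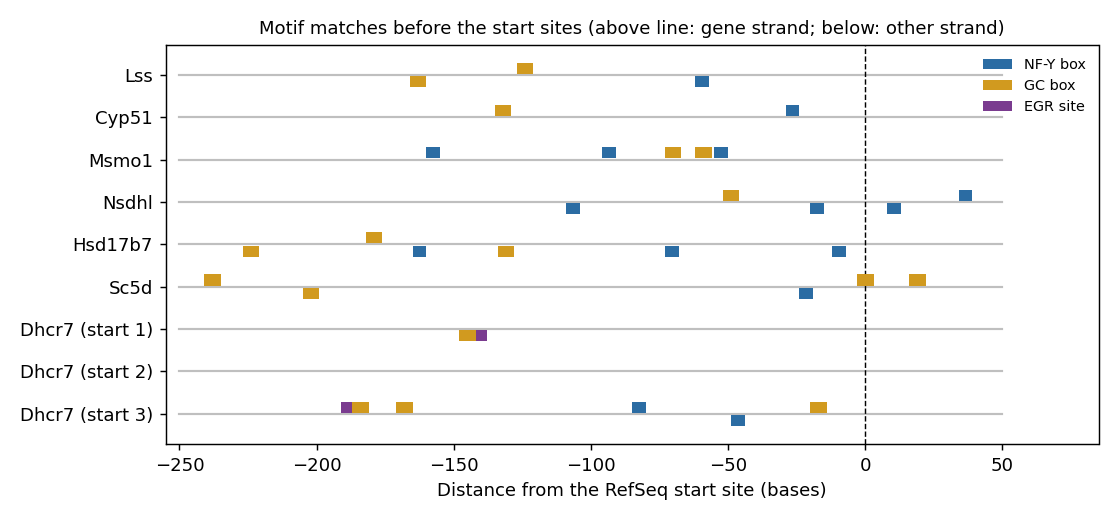
Positions of motif matches in the 9 RefSeq windows of 7 genes, as distance in bases from the start site (dashed line). Each grey line is 1 window of 300 bases, bars above it lie on the strand of the gene and bars below it on the other strand. NF-Y boxes and GC boxes occur in windows of all 7 genes, and the second *Dhcr7* window holds no match.

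All 9 enzymes were lower in *Nae1* cKO nerves than in WT nerves, by 2.15-fold to 5.35-fold. The smallest change was that of *Hsd17b7* (log2 fold change −1.10) and the largest that of *Lss* (−2.42), and the median was −1.37, against 0.0066 over all genes tested. Levels are given in CPM, counts scaled to a common library size, with the standard deviation over 4 nerves. Each of the 9 passed an adjusted p under 0.05 in edgeR's quasi-likelihood test (adjusted p from 2.1e-07 to 0.0010), as did 12.3% of the 17090 tested genes in the lower direction. None of the 9 was higher, against 14.1% of all genes. The split over all genes depended on the scaling, with 2099 lower and 2411 higher here, 1255 and 3875 with library totals, and 424 and 1297 with limma on log2(TPM + 1). All 9 were also over 2-fold lower, against 2.49% of all genes, and for all 9 every *Nae1* cKO nerve lay below every WT nerve, against 13.7% of all genes. The number called and the number over 2-fold lower both stayed at 9 without *Nae1* cKO nerve K2 and without WT nerves K1 and L4, the libraries that stood apart in 7SK RNA or in muscle RNA.

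**Figure D2:**
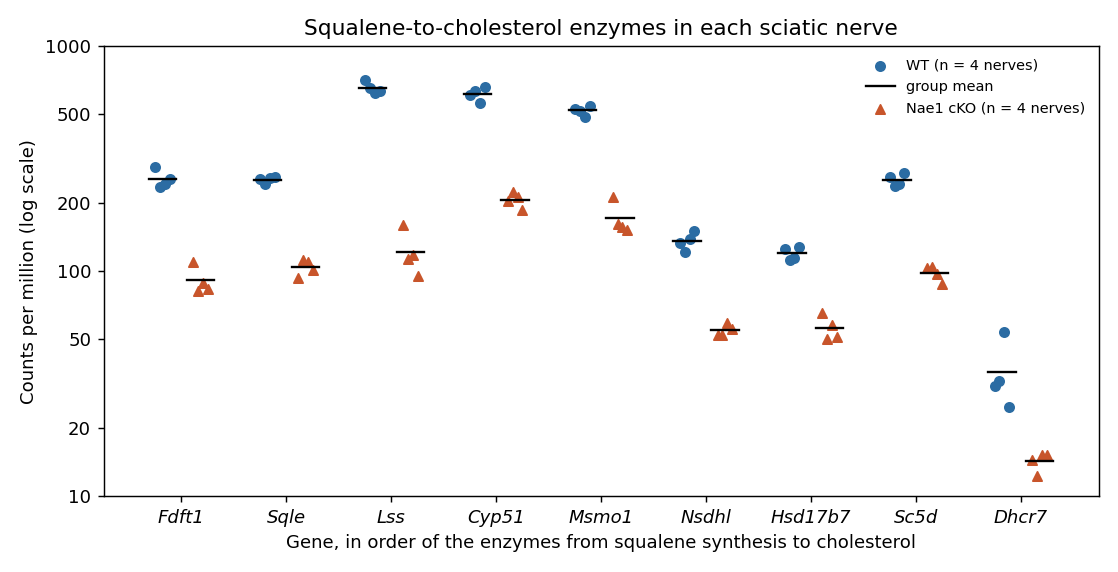
CPM of the 9 enzymes (log axis) in each of 4 WT nerves (circles) and 4 *Nae1* cKO nerves (triangles), with group means as bars, in pathway order. For each gene the triangles lie below all circles, and the gap is widest for *Lss* (means of 649.8 and 121 CPM).

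The libraries held 12962798 to 14766770 expected counts each (WT median 14419115, *Nae1* cKO median 13562546). *Nae1* itself was at 82.9 ± 5.07 CPM in WT nerves and 51.8 ± 6.56 CPM in *Nae1* cKO nerves (n = 4 each, log2 fold change −0.68, adjusted p = 2.8e-04), with no overlap between the groups in CPM. In TPM the groups overlapped and the call was lost (limma on log2(TPM + 1), −0.44, adjusted p = 0.27). One *Nae1* cKO nerve, K2, stood apart: the noncoding RNA 7SK took 4.70% of its counts, against 1.94% to 2.66% in the other 7 nerves. Muscle RNA varied widely, since the summed CPM of 8 skeletal muscle markers ran from 119 to 2015 in WT nerves, highest in L4 and next in K1 (1222), and from 57.6 to 165 in *Nae1* cKO nerves. Neurons were represented by few counts, and the neuronal marker *Rbfox3* was at 0 in all nerves.

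The first committed step is made by squalene synthase, encoded by *Fdft1* (ENSMUSG00000021273.10, chr14:63145150-63179578, minus strand, GRCm38). In WT nerves K1, L3, L4 and L9 it was at 291, 237, 244 and 257 CPM, and in *Nae1* cKO nerves K2, L1, L5 and L8 at 110.2, 81.2, 88.9 and 83.6 CPM. K2 was the highest of the *Nae1* cKO nerves, and the groups were well separated. The means were 257 ± 23.9 and 91.0 ± 13.2 CPM, a fall by 1.50 on the log2 scale (SE 0.107, adjusted p = 1.5e-06). *Fdft1* overlaps *Ctsb* on the opposite strand, and *Cyp51* overlaps *Akap9* in the same way. *Ctsb* had 1281 to 2879 expected counts per nerve, against 1166 to 3983 for *Fdft1*. *Akap9* had 3938 to 4765, against 2672 to 8716 for *Cyp51*. Whether counting used the strand is not given in the sources used here, so some reads of these pairs may have been assigned to either gene.

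Squalene monooxygenase, the product of *Sqle* (ENSMUSG00000022351.14, chr15:59315077-59331192, plus strand), adds oxygen to squalene and is a rate-limiting enzyme of the sterol branch. It was the most uniform of the enzymes in WT nerves, with 256, 245, 258 and 262 CPM in K1, L3, L4 and L9 (coefficient of variation 2.90%). The *Nae1* cKO nerves K2, L1, L5 and L8 held 93.4, 112, 110 and 101 CPM. Here K2 was the lowest of the *Nae1* cKO nerves, unlike in *Fdft1*. *Sqle* fell by 1.29 (SE 0.076, adjusted p = 4.1e-07) from a mean of 255 ± 7.39 to 104 ± 8.44 CPM.

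Lanosterol synthase, encoded by *Lss* (ENSMUSG00000033105.12, chr10:76531588-76557138, plus strand), closes oxidosqualene into the first sterol. *Lss* was at 705, 648, 617 and 628 CPM in WT nerves K1, L3, L4 and L9. In K2, L1, L5 and L8 it was at 159.6, 113, 118 and 95.0 CPM. The lowest WT nerve therefore held several times as much *Lss* mRNA as the highest *Nae1* cKO nerve, and the mean of the *Nae1* cKO nerves was 18.7% of that of the WT nerves. *Lss* fell by 2.42 on the log2 scale (SE 0.14, adjusted p = 4.5e-07), which ranked 21st from the largest fall among the 12755 tested genes of any kind whose mean count reached 50. The next largest fall among the enzymes was −1.60. An antisense gene, 4930483K19Rik, overlaps *Lss* with 8.13 to 66.5 counts per nerve, which is small beside the 1363 to 9656 counts of *Lss*.

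Lanosterol is next stripped of a methyl group by the cytochrome P450 enzyme CYP51, encoded by *Cyp51* (ENSMUSG00000001467.5, chr5:4081145-4104746, minus strand). Its levels were 608, 631, 556 and 654 CPM in WT nerves K1, L3, L4 and L9 and 206, 224, 214 and 186 CPM in *Nae1* cKO nerves K2, L1, L5 and L8. The nerves within each group were close together, with a coefficient of variation under that of *Fdft1* in both groups. *Cyp51* fell by 1.56 (SE 0.085), from 612 ± 41.7 to 207 ± 16.0 CPM, with the smallest adjusted p of the 9 enzymes (2.1e-07).

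*Msmo1*, *Nsdhl* and *Hsd17b7* encode the oxidase, the dehydrogenase and the ketoreductase that act in turn to remove the paired methyl groups of the sterol ring. *Msmo1* (ENSMUSG00000031604.10, chr8:64718139-64733792, minus strand) was at 527, 516, 485 and 543 CPM in K1, L3, L4 and L9 and at 212, 162, 158 and 153 CPM in K2, L1, L5 and L8. K2 lay well above the other *Nae1* cKO nerves, which were close together, and still far below the WT nerves. The fold change of *Msmo1* was −1.60 (SE 0.11, adjusted p = 9.1e-07).

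*Nsdhl* (ENSMUSG00000031349.4, chrX:72918557-72958514, plus strand) was at 133, 121, 139 and 151 CPM in K1, L3, L4 and L9 and at 51.9, 51.8, 59.1 and 55.2 CPM in K2, L1, L5 and L8. It is X-linked, and the sex of the mice was not used. *Nsdhl* fell by 1.32 (SE 0.085, adjusted p = 7.1e-07). *Hsd17b7* (ENSMUSG00000026675.12, chr1:169949535-169969241, minus strand) was at 125, 112, 114 and 128 CPM in the WT nerves and at 64.9, 50.2, 57.4 and 51.1 CPM in the *Nae1* cKO nerves, in the same order. It had the smallest change of the 9, −1.10 (SE 0.094, adjusted p = 5.5e-06), and with library totals as the scale or on TPM its change was under 2-fold (−0.95 and −0.89) and still called. Within this group of 3 enzymes the fitted changes thus stood in the order *Msmo1*, *Nsdhl*, *Hsd17b7*, and the tests of their ratios are given further on. Their scaffold protein in the endoplasmic reticulum, encoded by *Erg28*, changed less than any of the 3 (−0.67, SE 0.084, adjusted p = 1.0e-04). The difference between the scaffold and the enzymes was not tested.

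The last enzymes of the series are the sterol desaturase encoded by *Sc5d* (ENSMUSG00000032018.14, chr9:42251595-42264256, minus strand) and the reductase encoded by *Dhcr7* (ENSMUSG00000058454.15, chr7:143823145-143848410, plus strand), which makes cholesterol from its direct precursor in one of the routes to it. *Sc5d* was at 261, 238, 243 and 274 CPM in K1, L3, L4 and L9 and at 103, 105, 96.7 and 87.5 CPM in K2, L1, L5 and L8, a fall by 1.37 (SE 0.082, adjusted p = 4.5e-07). *Dhcr7* was the most variable of the enzymes in WT nerves, with 30.8, 32.5, 53.5 and 25.0 CPM in K1, L3, L4 and L9 (coefficient of variation 35.1%). The *Nae1* cKO nerves held 14.6, 12.3, 15.3 and 15.2 CPM in K2, L1, L5 and L8, so the lowest WT nerve still lay above the highest of them. The fold change of *Dhcr7* was −1.31 (SE 0.21, adjusted p = 0.0010), and −1.04 (adjusted p = 2.1e-04) without the high WT nerve L4. L4 was also the nerve with the most muscle RNA (summed marker CPM of 2015), and the part of muscle in the *Dhcr7* value was not tested.

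Seen across nerves, the mean fall of the 9 enzymes was similar in each *Nae1* cKO nerve, while single enzymes differed within a nerve. Their mean log2 difference from the WT mean was −1.37 in K2, −1.54 in L1, −1.47 in L5 and −1.60 in L8. The range from the lowest to the highest enzyme was 1.14 in K2, 1.33 in L1, 1.40 in L5 and 1.61 in L8. K2 was the highest of the *Nae1* cKO nerves for 4 enzymes and the lowest for 1, while L8 was the highest for none and the lowest for 4. L1 was also the lowest for 4 and the highest for 3. *Lss* was the lowest of the 9 in each of the 4 *Nae1* cKO nerves, between −2.02 in K2 and −2.77 in L8. In WT nerves the mean over the enzymes stayed between −0.06 and 0.03, and the widest departures were those of *Dhcr7*, at 0.65 in L4 and −0.44 in L9.

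**Figure D3:**
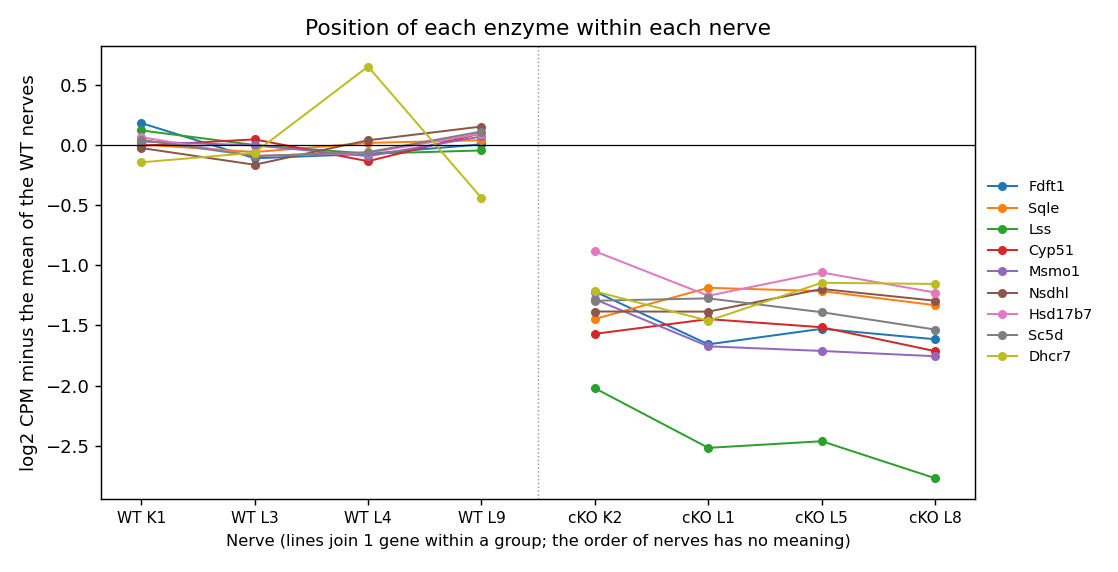
Difference of log2 CPM from the mean of the 4 WT nerves for each enzyme (lines) in each nerve (x axis). The lines of the *Nae1* cKO nerves run in a band from −0.88 to −1.76 except for *Lss*, which lies between −2.02 and −2.77, and *Dhcr7* stands out in WT nerve L4 at 0.65.

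To compare the enzymes with each other, the deposited TPM values were used, which are scaled for transcript length and library. The summed TPM of the 9 enzymes was 601.8 to 755.7 in WT nerves and 186.7 to 317 in *Nae1* cKO nerves. Each of the 9 was lower on log2(TPM + 1) by exact permutation, two-sided (p = 0.0286, the least that 4 against 4 nerves allow, and 0.0286 after adjustment over the 9 tests). In WT nerves *Msmo1* had the highest level per length, at 203 ± 20.3 TPM, above the range of every other enzyme. *Cyp51* (115 ± 12.9 TPM) and *Lss* (103 ± 10.5 TPM) followed with overlapping ranges. A middle group of *Fdft1*, *Sqle*, *Sc5d* and *Nsdhl* ran from 66.8 to 46.1 TPM with ranges that overlapped from each to the next. *Hsd17b7* (21.1 ± 3.35 TPM) and *Dhcr7* (12.9 ± 5.92 TPM) were lowest, and their ranges overlapped through WT nerve L4, where *Dhcr7* was at 21.8 TPM.

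In *Nae1* cKO nerves *Msmo1* was again first at 70.9 ± 11.4 TPM, although its range now overlapped that of *Cyp51* (43.7 ± 13.0 TPM) by a small margin, and *Hsd17b7* (10.98 ± 2.11 TPM) and *Dhcr7* (6.09 ± 1.58 TPM) were again last, this time with separate ranges. *Lss* passed from the third to the sixth place, at 21.1 ± 5.37 TPM, next to *Sc5d* (22.9 ± 6.55 TPM) and *Nsdhl* (20.8 ± 5.17 TPM), whose ranges it overlapped. Ranked among all 17090 tested genes by mean TPM, *Lss* went from place 388 to place 2685, and *Msmo1* from 198 to 621.

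The ratio of each enzyme to the next was then taken in each nerve, to ask whether the pathway kept its proportions. The log2 ratio of *Sqle* to *Lss* was −0.70 ± 0.09 in WT nerves and 0.45 ± 0.40 in *Nae1* cKO nerves, a difference of 1.15, and that of *Lss* to *Cyp51* went from −0.15 ± 0.12 to −1.04 ± 0.27, a difference of −0.89. In both pairs the groups did not overlap. The ratio of *Nsdhl* to *Hsd17b7* went from 1.13 ± 0.03 to 0.90 ± 0.12, without overlap on TPM but with overlap on expected counts (exact permutation p = 0.0857). These 3 ratios had p = 0.0286 in two-sided exact permutation tests (n = 4 each), the smallest the design allows, and 0.0762 after adjustment over the 8 ratios, so that 0 of the 8 passed. With this floor, adjustment over 8 tests can pass only when several ratios reach it together. A change confined to 1 enzyme could not pass, whatever its size, so the count of 0 does not answer whether the proportions were kept. The other 5 ratios differed by −0.35 to 0.30 (exact permutation p from 0.0857 to 0.514). After these values were seen, the ratios of all 36 pairs were computed. The groups did not overlap in 12 pairs, among them all 8 pairs that hold *Lss*, whose ratio to each other enzyme was lower in *Nae1* cKO nerves by 0.79 to 1.37 on the log2 scale. The smallest adjusted p over the 36 pairs was 0.0857 (two-sided exact permutation tests), so 0 of these passed either. Here too a change confined to 1 enzyme could not pass.

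**Figure D4:**
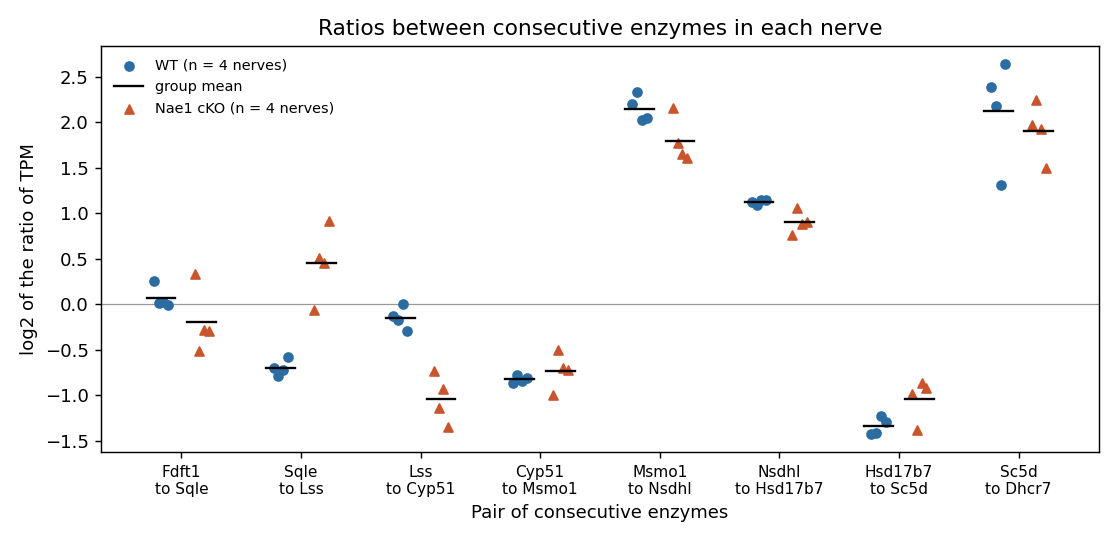
Log2 ratio of TPM between consecutive enzymes in each of 4 WT nerves (circles) and 4 *Nae1* cKO nerves (triangles), with group means as bars. The 2 pairs that hold *Lss* are the ones furthest apart between the groups, with differences of 1.15 and −0.89.

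RSEM also gives the mean length of the transcripts of a gene, weighted by the isoforms it found. This length moves when the mix of isoforms moves. A difference between the groups passed for 0 of the 9 enzymes (two-sided exact permutation tests, p from 0.143 to 0.971, adjusted p of at least 0.836). None had an unadjusted p under 0.05 either. After adjustment a change confined to 1 enzyme could not pass here, as with the ratios, so small shifts in length are left undecided. For *Lss* the lengths were 4313 ± 279 bases in WT nerves and 4325 ± 399 bases in *Nae1* cKO nerves, a difference smaller than the spread in either group.

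The steps before squalene were lower as well. All 8 tested enzymes from acetyl-CoA to farnesyl diphosphate were over 2-fold lower, with a median log2 fold change of −1.76. *Hmgcs1*, which makes the precursor of mevalonate, fell by 2.08 (SE 0.106, adjusted p = 1.4e-07) from 3944 ± 556 to 933 ± 49.7 CPM. *Idi1*, the isomerase of isopentenyl diphosphate, fell by 1.91 (SE 0.101, adjusted p = 1.6e-07), and *Acat2*, the first enzyme, by 1.67 (SE 0.073, adjusted p = 6.1e-08). *Fdps*, which makes the farnesyl diphosphate that *Fdft1* uses, fell by 1.74 (adjusted p = 4.5e-07). The 8 genes spanned −2.08 to −1.35. Of the 9 enzymes after farnesyl diphosphate, *Lss* lay below that span, *Sqle*, *Nsdhl*, *Hsd17b7* and *Dhcr7* lay above it and the other 4 lay within it.

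Farnesyl and isopentenyl diphosphate also feed reactions other than sterol synthesis, such as protein prenylation, dolichol, ubiquinone and heme A. Of 8 genes for these reactions, 1 passed the test and 7 did not, with a median of 0.02 and a range of −0.38 to 0.19. The gene that passed was *Fnta*, a subunit of the protein prenyltransferases, at 172 ± 16.1 CPM in WT and 132 ± 9.03 CPM in *Nae1* cKO nerves (−0.38, SE 0.085, adjusted p = 0.0055), and it did not pass on TPM or with library totals. *Ggps1*, which makes geranylgeranyl diphosphate, was at 45.0 ± 3.38 and 48.1 ± 2.998 CPM (0.10, SE 0.084, adjusted p = 0.45). *Fdft1*, at the same branch point, stood at −1.50.

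**Figure D5:**
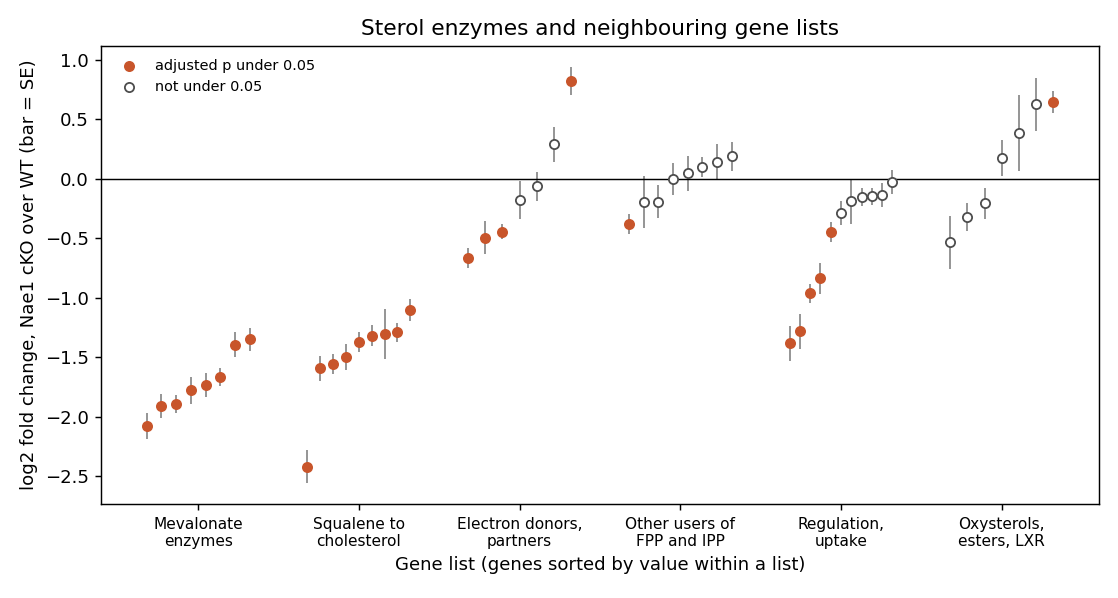
Log2 fold change of *Nae1* cKO over WT nerves (bars are standard errors) for the 9 enzymes and for neighbouring gene lists, where FPP and IPP are farnesyl and isopentenyl diphosphate. Filled points passed an adjusted p under 0.05. The mevalonate enzymes and the 9 enzymes lie below −1, while 7 of 8 other users of farnesyl and isopentenyl diphosphate did not pass.

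Some of the 9 enzymes need electrons from carriers that serve many other enzymes too. Of 7 such carriers and partners, 3 were lower, 1 was higher and 3 did not pass (median −0.18), and none changed over 2-fold. Cytochrome P450 reductase, encoded by *Por*, gives electrons to CYP51 and squalene monooxygenase, and its level was 24.05 ± 3.37 CPM in WT and 23.0 ± 2.56 CPM in *Nae1* cKO nerves (−0.07, SE 0.122, adjusted p = 0.74). *Cyb5b* fell by 0.45 (adjusted p = 3.3e-04) and *Cyb5r3*, the reductase of cytochrome b5, by 0.50 (adjusted p = 0.021). *Pgrmc1*, a heme protein that binds P450 enzymes, went the other way and rose by 0.82 (SE 0.118, adjusted p = 2.9e-04), from 97.4 ± 10.6 to 172 ± 28.9 CPM. The calls of *Cyb5b*, *Cyb5r3* and *Erg28* were lost with limma on log2(TPM + 1), and that of *Pgrmc1* was not. The *Cyb5r3* call was also lost with library totals and when nerve L1, L4 or L9 was left out (−0.48, −0.45 and −0.42).

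Sterol regulation and uptake was represented by 11 genes, of which 5 were lower and 6 did not pass, with a median of −0.29. *Insig1*, which holds SREBPs in the endoplasmic reticulum and is itself an SREBP target, fell by 1.39 (SE 0.151, adjusted p = 5.6e-05), from 390.3 ± 23.6 to 149 ± 39.0 CPM. *Stard4*, a carrier of cholesterol in the cytosol, fell by 0.96 (SE 0.080, adjusted p = 4.7e-06). *Srebf2*, which encodes SREBP2, fell by 0.84 (SE 0.128, adjusted p = 5.0e-04) from 92.6 ± 19.3 to 51.8 ± 3.12 CPM, a call that was lost on TPM. *Srebf1* was at 56.9 ± 5.93 CPM in WT nerves and 49.9 ± 16.0 CPM in *Nae1* cKO nerves (−0.19, SE 0.188, adjusted p = 0.51).

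Of 7 tested genes for oxysterols, cholesterol esters and LXR, the nuclear receptor for oxysterols, 1 passed the test. This was *Soat1*, which stores cholesterol as esters, and it rose by 0.64 (SE 0.093, adjusted p = 3.0e-04) from 61.9 ± 6.18 to 96.5 ± 8.62 CPM, a call that was lost on TPM. The LXR genes *Nr1h2* (−0.33, adjusted p = 0.061) and *Nr1h3* (0.63, adjusted p = 0.057) did not pass. *Ch25h* had too few counts to be tested.

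In bulk nerve, fewer cells of a type and less RNA per cell cannot be told apart. The 7 Schwann cell lineage markers summed to 1398 to 1577 CPM in WT nerves and 1520 to 1579 CPM in *Nae1* cKO nerves, so the ranges overlapped. Within them *Sox10* (−0.74) and *Gpr37l1* (−0.82) were lower, *Cdh19* (0.80) and *Lgi4* (0.20) were higher, and the median was −0.08. The sum is weighted to abundant markers such as *Erbb3* (640 CPM in WT and 608 CPM in *Nae1* cKO nerves). It also mixes markers that rose with markers that fell. The *Sox10* call was lost on TPM and without WT nerves K1 and L4 (−0.48). Macrophage markers were higher for 6 of 8 genes, with sums of 208 to 226 CPM in WT and 369 to 446 CPM in *Nae1* cKO nerves. Fibroblast markers were higher for 4 of 6 (sums of 15754 to 19859 and 19500 to 21958 CPM) and endothelial markers lower for 3 of 5 (sums of 199 to 251 and 157 to 188 CPM), although none of the 3 endothelial calls held with limma on log2(TPM + 1) or log2(FPKM + 1). Calls of single markers with small changes, among them *Lgi4*, *Col3a1* and *Pecam1*, were lost when certain nerves were left out. The part of these cell types in the fall of the enzymes was not tested.

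Myelin proteins and fatty acid enzymes moved in the same direction as the sterol enzymes in the same nerves. All 9 myelin protein genes were lower, 8 of them over 2-fold, with a median of −1.57. *Cnp* (−1.78), *Cldn19* (−1.71), *Mal* (−1.53) and *Mag* (−1.16), which encode proteins of the myelin membrane, are examples. Of 8 fatty acid enzymes 7 were lower and 1 was higher, with a median of −1.08. *Elovl6*, an elongase, fell by 1.62 and *Fasn*, the fatty acid synthase, by 1.48, while the elongase *Elovl5* rose by 0.47 (adjusted p = 0.0027), a call that was lost on TPM.

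The genes with the pattern nearest to that of the 9 enzymes were sought among 11289 genes, left from those with a mean count of 50 or more once the enzymes, clone names, small RNAs and mitochondrial genes were set aside, by the root mean square difference over the 8 nerves between log2 CPM relative to the WT mean and the mean of the enzymes. The nearest was *Fam83f* (0.10 on the log2 scale), followed by *Ugt8a* and *Mal* (0.12 each), and *Ppp1r16b* (0.13) was also among the nearest 5. *Ugt8a* encodes the enzyme that makes galactosylceramide, a myelin lipid, and *Mal* a protein of compact myelin. By the same measure *Fdft1* was the enzyme nearest to the mean of the 9 (0.10) and *Lss* the furthest (0.69). The likeness rests on 8 points that differ mainly between the groups, and it carries no test.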

How the data were processed

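Stranded, rRNA-depleted libraries were sequenced from 4 WT and 4 *Nae1* cKO sciatic nerve samples (P7). Groups came from the sample labels. For each nerve the authors deposited the gene table of RSEM with expected counts (estimated and unscaled), TPM and FPKM (scaled by the authors for library and length) and the gene length in bases. The submitters' processing lists GRCm38, STAR, RSEM and FastQC 0.11.5, while the paper's methods name TopHat and Cuffdiff, which need reads. Neither the annotation release nor the strand setting is given in the sources used here. No column was left unmapped. Nothing in the labels says that the nerves came from separate mice, so p-values measure the spread between these samples.

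Expected counts were rounded, filtered (edgeR 4.0.16 filterByExpr, 17090 genes), scaled by TMM and compared by the robust quasi-likelihood test in R 4.3.3 with Benjamini-Hochberg adjustment over all 17090 genes. Calls used an adjusted p under 0.05. The common biological coefficient of variation was 0.158. The standard error was the log2 fold change divided by the square root of F. For single values, exact permutation tests (two-sided, SciPy 1.17.1) were run. Alternatives were DESeq2 1.42.0, limma 3.58.1 (voom, TPM and FPKM), other scalings and filters, the letter of the sample names, and each nerve left out, and, added after the data were seen, the removal of WT nerves K1 and L4 and the ratios of all pairs of enzymes.

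The enzymes and gene lists were chosen with earlier results of these data known. Named genes were the 9 enzymes, *Nae1*, up to 4 genes per pathway list with the smallest adjusted p, genes that went against their list, and the 5 genes most like the enzymes in pattern. Genes named beside these as the subject of a sentence on a function (*Por*, *Ggps1*, *Srebf1*, *Fdps*, *Ch25h*) and the cell markers were chosen after their values were seen. A few genes given by this rule are not reported here, for a reason that has nothing to do with their levels. Adipocyte markers (3 of 5 tested) did not pass. Of 4 tested neuron markers 2 were higher, *Tubb3* (1.17) and *Snap25* (1.37). *Snap25* was near the floor (0.90 and 2.35 CPM), and its call was lost with only the nerves named with L or without L9. The other 2, *Nefl* (−1.04, adjusted p = 0.083 in edgeR) and *Nefm* (−0.56), were lower without passing. *Nefl* was called lower with DESeq2 and limma-voom. Coordinates are from GENCODE vM21 on GRCm38.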

Additional observations from a re-analysis of the deposited data

Results flagged for a closer look

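Of 70 sets of 4 nerves examined, 3 had 1 nerve far from the others, judged by Dixon's critical value for the gap to the nearest nerve as a share of the range, and chance gives about 1 in 20 such sets. In *Nae1* cKO nerve K2 *Msmo1* reached 212 CPM, with a gap of 0.849 of the range. *Dhcr7* was at 21.8 TPM in WT nerve L4, with a gap of 0.854 of the range. The log2 TPM ratio of *Fdft1* to *Sqle* was 0.26 in WT nerve K1, with a gap of 0.884 of the range.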

How the results depend on the processing

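The 9 enzymes were tested under 20 alternatives, and all 180 results kept the direction and an adjusted p under 0.05 (largest 0.018, *Dhcr7* in the 6 nerves named with L). The number over 2-fold lower was 8 with library totals, 7 with limma on log2(TPM + 1) or log2(FPKM + 1), 8 with log2(TPM + 0.1) and 9 in the rest, with *Hsd17b7* and *Dhcr7* down to −0.88 and −0.92. *Lss* ranged from −2.25 to −2.59. Library totals moved the median of all genes to 0.16 and log2(TPM + 1) moved it to 0.10. The number of all genes lower and over 2-fold, 426 in edgeR, was 281 with library totals, 110 and 239 with limma on log2(TPM + 1) and log2(TPM + 0.1), and 126 on log2(FPKM + 1). All genes called lower and higher were 415 and 1245 on log2(TPM + 0.1), 1035 and 3359 on log2(FPKM + 1), and 1129 and 1273 without WT nerves K1 and L4. With 1 nerve left out, the exact tests on TPM passed for 0 of 9 enzymes in every case (lowest 0, highest 0), because 3 against 4 nerves cannot go below p = 0.0571. The *Dhcr7* difference on log2(TPM + 1) was −0.66 without WT nerve L4 against −0.92 with it. The ratios of consecutive enzymes passed for 0 of 8 and those of all pairs for 0 of 36 on expected counts as on TPM. No paired analysis was possible because the nerve names share no numbers between the groups that mark a pair. The effect of depth on precision was not tested.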
